A study of Mus musculus with 8 samples.

Results

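The 41 genes described here are interferon-stimulated genes, chosen by name as members of the type I interferon response, and all 41 were found among the 23369 genes of the deposited count table by their Ensembl identifiers. They were followed in spinal cord neutrophils of C57BL/6N mice with EAE (experimental autoimmune encephalomyelitis), a mouse model of multiple sclerosis in which an autoimmune attack on brain and spinal cord is induced. The cells were sorted as CD45+CD11b+Ly6G+ and their RNA was sequenced as bulk libraries at ZT13 (n = 4) and at ZT1 (n = 4). ZT is zeitgeber time, the hours after lights-on, so ZT13 falls in the dark phase and ZT1 at the start of the light phase under the usual lighting. All 8 samples share the strain, the disease, the tissue and the sort, and the labels give no healthy, untreated or interferon-deficient group and no age. What the samples show is therefore the level of these genes in inflamed tissue at both times, and not their response to a known dose of interferon.

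Type I interferons, the interferon-alphas and interferon-beta, bind the receptor IFNAR1 and IFNAR2, whose kinases JAK1 and TYK2 phosphorylate STAT proteins. STAT2 and IRF9 are parts of the complex that binds the interferon-stimulated response element, a short motif of repeated GAAA letters, and turns on antiviral effectors, nucleic acid sensors and feedback inhibitors. Interferon-gamma acts through another receptor on a partly shared set of genes, so that many genes answer to both. In multiple sclerosis, interferon-beta is an established treatment, and in EAE signalling through IFNAR on myeloid cells is known to limit disease.

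Libraries held between 46152067 and 67873023 counts. This puts the limit that a count of 0 allows (3 counts) between 0.0414 and 0.0674 CPM (counts scaled to library size by TMM factors). That limit covers counting error only, while the intervals of fold changes given below also include the spread between libraries. Neutrophil marker genes were abundant in every library, and their summed level ran from 82987 to 118870 CPM at ZT13 and from 56644 to 87671 CPM at ZT1. Markers of other cells were present at lower sums. For 8 microglia markers these were 110.8 to 201.2 CPM at ZT13 and 116.0 to 160.0 CPM at ZT1. For 10 monocyte and macrophage markers, most of it Ly6c2, Ccr2 and Csf1r, they were 1873 to 2511 CPM at ZT13 and 1820 to 2432 CPM at ZT1. In bulk RNA, fewer cells of a type and less RNA per cell cannot be told apart. The labels give no animal identifiers, and if some came from the same mouse, the p-values below would cover technical spread alone.

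The promoters of the members often held the letters of the response element. RefSeq windows (build GRCm38.p6, 250 bases before to 50 after the start) were at hand for 30 members, and 16 of these (53.3%) held this motif, searched as GAAA, any 2 bases and GAAA on either strand, against 3.99% of all 27025 genes with a window. TTCNNNGAA, the core of the gamma-activated site, occurred in 6 of the 30 members and in 9.55% of all genes, and of the 3 members holding both motifs 2 had them overlapping. Among 13 interferon-gamma-inducible genes with a window, used below for comparison, 10 held the first motif and 7 the second. The stretches below belong to members whose levels are described next, in pairs where paralogs are alike. Each is written 5′ to 3′ along the gene's strand, with every match to the first motif in capitals (read as TTTC, 2 bases and TTTC where it lies on the opposite strand).
Ifit3b, chr19:34607707-34607956, + strand: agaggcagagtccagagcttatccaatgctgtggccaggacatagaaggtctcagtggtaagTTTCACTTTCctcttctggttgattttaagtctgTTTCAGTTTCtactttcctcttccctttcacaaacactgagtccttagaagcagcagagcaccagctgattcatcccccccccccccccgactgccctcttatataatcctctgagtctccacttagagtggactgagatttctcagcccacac
Ifit3, chr19:34583348-34583441, + strand: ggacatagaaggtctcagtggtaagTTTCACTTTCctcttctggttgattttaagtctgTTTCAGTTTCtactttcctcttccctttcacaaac
Ifit1, chr19:34640760-34640838, + strand: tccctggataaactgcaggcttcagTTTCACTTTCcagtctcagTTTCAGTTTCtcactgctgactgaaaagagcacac
Oas1g, chr5:120887591-120887656, - strand: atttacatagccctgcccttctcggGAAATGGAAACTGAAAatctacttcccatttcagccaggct
Oas1a, chr5:120907505-120907570, - strand: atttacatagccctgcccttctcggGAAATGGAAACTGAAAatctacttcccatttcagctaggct
Isg15, chr4:156200850-156200921, - strand: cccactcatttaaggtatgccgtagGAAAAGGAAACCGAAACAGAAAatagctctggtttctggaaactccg
Rsad2, chr12:26456538-26456597, - strand: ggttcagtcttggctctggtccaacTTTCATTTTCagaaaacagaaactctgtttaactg
Ifitm3, chr7:141010715-141010767, - strand: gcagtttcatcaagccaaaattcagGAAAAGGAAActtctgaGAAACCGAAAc
Bst2, chr8:71537562-71537627, - strand: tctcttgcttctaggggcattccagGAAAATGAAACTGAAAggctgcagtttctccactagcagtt
Ifi205, chr1:174031855-174031914, - strand: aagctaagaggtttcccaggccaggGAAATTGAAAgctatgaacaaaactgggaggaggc
In Isg15 3 matches overlap in 1 run of letters. The windows of Ifit3b and Ifit3 were identical at 259 of 274 aligned positions (94.5%) and those of Oas1g and Oas1a at 261 of 303 (86.1%), with the same matches in both members of each pair. A match is a description of letters and does not show that a factor was bound.

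No member passed the test between ZT13 and ZT1. Of the 41 members, all tested, 0 had a Benjamini-Hochberg adjusted p under 0.05 in edgeR's quasi-likelihood test over 12610 genes, where 0 of all genes (0%) passed as well. DESeq2 called 0 members on the same filtered genes, where it called 118 genes (0.94%), and 0 members when run on all genes with its own filtering, where it called 256 (1.7%). At an unadjusted p under 0.05 stood 5 members (12.2%), against 9.2% of all genes tested. Of these, Ifit3b, Ifitm1 and Ifitm3 were higher at ZT13 (7.32%, against 4.35% of all genes) and Oas2 and Ifi205 lower (4.88%, against 4.85%). The 4 ZT13 libraries lay apart from the 4 ZT1 libraries in 1 member, Ifit3b, higher at ZT13 (2.44%, against 2.66% of all genes in that direction and 5.66% in both).

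Fold changes pointed both ways. The log2 fold change of ZT13 over ZT1 was positive in 18 members (43.9%, against 47.7% of all genes) and negative in 23, with a median of -0.01 that lay beside -0.02 for all genes tested. Under other scalings 16 to 21 members were positive, and with 1 library left out 14 (without ZT1 replicate 4) to 26 (without ZT1 replicate 3). The fold change was smaller than 0.25 in size in 25 members, and 10 members (24.4%) were beyond 0.5 in either direction, against 23.1% of all genes. The standard error had a median of 0.251, and for 27 members the 95% interval lay within 1 log2 unit of 0 on both sides, so for those a 2-fold difference in either direction lay outside the interval. By role, the 4 genes of ISG15, its ligase and the PARP pair had only negative values, with a median of -0.22 and no p under 0.05; 3 of the 4 were negative without ZT1 replicate 3 or ZT13 replicate 1, with limma-voom and with the replicate block. The other 5 classes held both signs, with medians from -0.12 to 0.11.

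**Figure D1:**
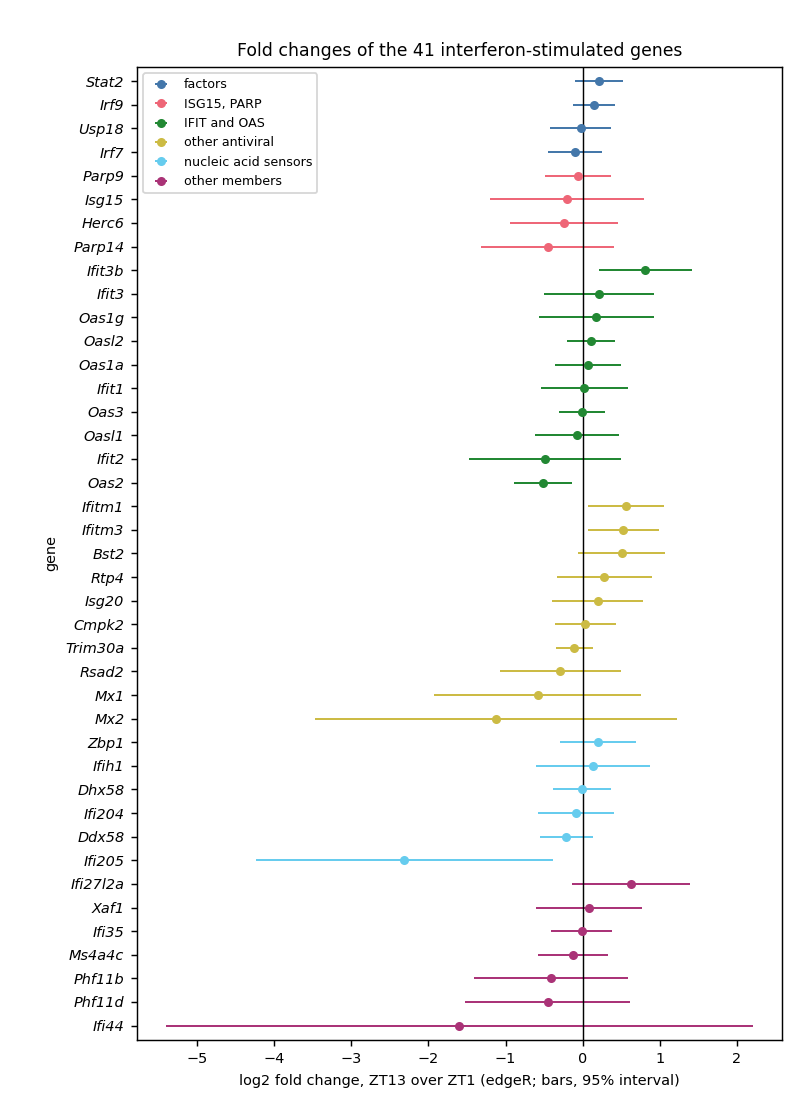
Log2 fold change of ZT13 over ZT1 for each of the 41 members (x axis, edgeR; bars, 95% interval), grouped and coloured by role. Intervals of 36 members cross 0, and Ifit3b, Ifitm1, Ifitm3, Oas2 and Ifi205 are those whose interval does not.

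The members varied together from library to library, and their mean level overlapped between the times. Their mean log2 CPM was 4.81, 5.54, 5.15 and 5.51 in ZT13 replicates 1 to 4, and 5.09, 5.57, 5.88 and 5.13 in ZT1 replicates 1 to 4. ZT1 replicate 3 stood highest and ZT13 replicate 1 lowest. The group means were 5.26 ± 0.34 at ZT13 and 5.42 ± 0.38 at ZT1 (SD, n = 4 each). Their difference was -0.16, where the libraries ranged over 1.07. This mean weighs each gene alike, so faint members with ZT13 libraries at 0, Ifi44 and Mx2, pull it down at ZT13. The summed CPM, of which Ifitm1 and Ifitm3 were the largest parts, did not follow it. It was 4231, 5573, 5284 and 5876 at ZT13 and 3712, 4506, 5997 and 3531 at ZT1, lowest in ZT1 replicate 4. ZT1 replicate 3 was above the gene's own mean in 40 of 41 members and held the highest value of 18 (43.9%, against 10.6% of all genes tested). ZT13 replicate 1 was below it in 35 and held the lowest value of 13 (31.7%, against 17.2%). ZT1 replicates 1 and 4 each held the lowest value of another 10 members.

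**Figure D2:**
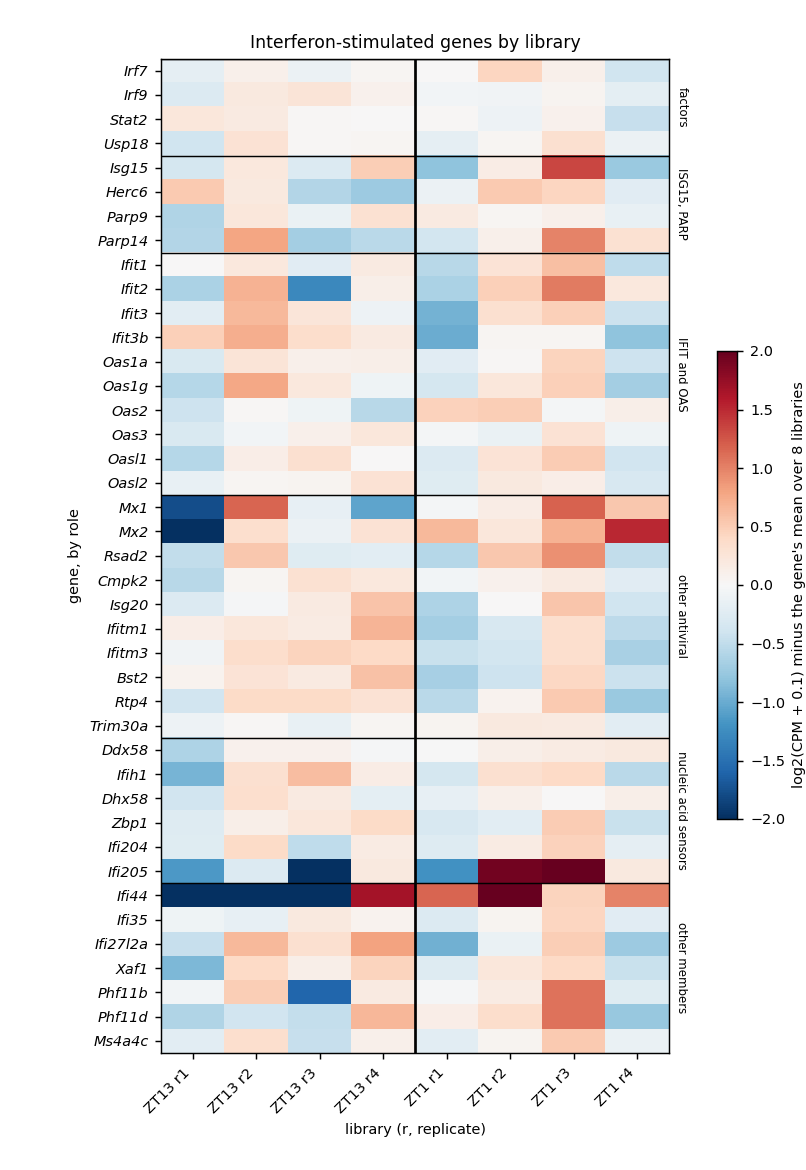
Level of each member (rows, by role) in each library (columns, ZT13 left of the line and ZT1 right), as log2 CPM minus the gene's mean over 8 libraries, red above it and blue below. ZT1 replicate 3 is above the gene's mean in 40 of 41 rows, and ZT13 replicate 1 is below it in 35.

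Each member was compared with the mean of the other members over the 8 libraries, as a description, since the points share library, depth and scaling. Pearson's r had a median of 0.67, and 30 of 41 members (73.2%) reached 0.5. Of the 12569 other genes tested, 11.2% had an r of 0.5 or more with the members' mean, and their median was 0.06. Between pairs of members the median r was 0.47, against 0.002 for pairs among all genes tested, 0.18 for 36 further interferon-stimulated genes and 0.69 for 18 interferon-gamma-inducible genes. With each time point's own mean taken away first, the median r of a member with the others was 0.76. Without ZT1 replicate 3 it was 0.57, with 26 members at 0.5 or more.

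Usp18, the protease that removes ISG15 from proteins and blocks signalling at IFNAR2, followed the others most closely (r = 0.91). It had 23.3, 37.4, 31.1 and 31.4 CPM in ZT13 replicates 1 to 4, against 27.2, 31.4, 38.3 and 28.4 CPM in ZT1 replicates 1 to 4. Its lowest value was in ZT13 replicate 1 and its highest in ZT1 replicate 3, and the log2 fold change was -0.03 (95% interval from -0.42 to 0.37). Rsad2, which encodes the antiviral enzyme viperin, came next (r = 0.88), with 67.0, 136.1, 79.5 and 80.9 CPM at ZT13 and 63.4, 136.8, 177.9 and 66.5 CPM at ZT1. ZT13 replicate 2 and ZT1 replicates 2 and 3 were high, and the groups overlapped throughout (log2 fold change -0.29 ± 0.35). Usp18 and Rsad2 were singled out after their values were seen. At the other end stood Stat2 (r = 0.04), Oas2 (0.08), Herc6 (0.11), Ifit3b (0.16) and Ifi44 (0.20), followed by Ifitm1 (0.37), Ifitm3 (0.38) and Bst2 (0.41). Of the 5 members at an unadjusted p under 0.05, 4 lay among the 11 members with r below 0.5. The remaining one, Ifi205, had an r of 0.72. This is partly built in, since the members' mean differed little between the times and a difference in 1 gene can itself lower its r. With each time point's own mean taken away, 35 members reached 0.5.

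**Figure D3:**
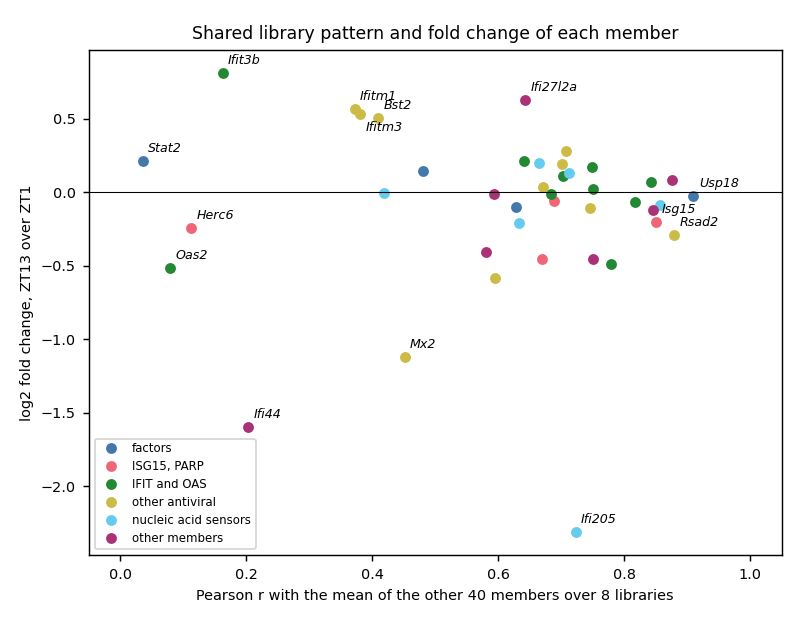
Pearson r of each member with the mean of the other 40 members over 8 libraries (x axis) against its log2 fold change of ZT13 over ZT1 (y axis), coloured by role. Usp18 (-0.03) and Rsad2 (-0.29) lie at the right, while Ifit3b, Ifitm1, Ifitm3 and Oas2 lie at r under 0.5. A difference between the times can itself lower r.

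Among the transcription factors, levels were close to equal at both times. Irf7, the factor that amplifies interferon-alpha production, was the most abundant per kilobase of exon in its class. It had 159.4, 192.2, 166.0 and 184.9 CPM at ZT13 and 181.5, 242.8, 193.3 and 136.4 CPM at ZT1, in order of replicate. The ZT13 values lay inside the ZT1 range (log2 fold change -0.10 ± 0.16 SE). Stat2, with IRF9 a part of the complex that binds the response element, had 61.45, 59.4, 53.5 and 52.9 CPM at ZT13 and 53.4, 48.7, 55.8 and 38.1 CPM at ZT1. ZT13 replicates 1 and 2 stood above every ZT1 library and ZT1 replicate 4 stood alone at the low end, with a log2 fold change of 0.21 ± 0.14. Irf9 averaged 157.7 ± 24.6 CPM at ZT13 and 142.4 ± 10.4 CPM at ZT1.

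Isg15, the ubiquitin-like protein joined to other proteins after interferon, differed 4.41-fold between its highest and lowest library. It had 35.3, 52.1, 37.2 and 63.3 CPM at ZT13, against 25.8, 49.7, 113.7 and 26.8 CPM at ZT1. All 4 ZT13 values fell within the ZT1 range, which was set by ZT1 replicate 3 at the top and ZT1 replicates 1 and 4 at the bottom. The log2 fold change was -0.20 (interval from -1.20 to 0.80), and 0.46 without ZT1 replicate 3. Parp14, an ADP-ribosyltransferase, had 18.7, 48.2, 17.3 and 19.2 CPM at ZT13 and 21.7, 29.97, 55.6 and 34.5 CPM at ZT1. Here 3 ZT13 libraries lay under every ZT1 library and ZT13 replicate 2 did not (log2 fold change -0.45 ± 0.38, -0.95 without ZT13 replicate 2 and -0.15 without ZT1 replicate 3). Herc6, the ISG15 ligase in mice, averaged 13.7 ± 5.70 CPM at ZT13 and 16.2 ± 4.23 CPM at ZT1, and Parp9 44.7 ± 11.8 CPM at ZT13 and 46.7 ± 4.42 CPM at ZT1.

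Within the IFIT family, whose proteins bind viral RNA or support those that do, Ifit3b was the gene without overlap between the times. It had 20.4, 24.1, 18.7 and 16.5 CPM at ZT13, against 7.26, 14.95, 14.93 and 8.32 CPM at ZT1. All ZT13 libraries lay above all ZT1 libraries, with a narrow gap between ZT13 replicate 4 and ZT1 replicates 2 and 3 (log2 fold change 0.81 ± 0.27; edgeR unadjusted p = 0.0137, adjusted p = 0.491). Its paralog Ifit3 had 21.8, 39.6, 29.9 and 23.6 CPM at ZT13 and 13.1, 31.7, 35.4 and 18.7 CPM at ZT1, with overlap and a log2 fold change of 0.22 ± 0.32. Of the 50-base stretches of Ifit3's exons, the length of the reads, 51.2% also occur in Ifit3b, and 44.5% of those of Ifit3b occur in Ifit3. The sources used here do not say how reads that map to both were counted, so the split between the pair is uncertain. Ifit1 averaged 73.6 ± 9.86 CPM at ZT13 and 72.7 ± 28.7 CPM at ZT1 and Ifit2 22.9 ± 13.01 CPM at ZT13 and 32.04 ± 14.4 CPM at ZT1.

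The OAS genes encode enzymes that make 2-5A, the activator of the ribonuclease RNase L, and related proteins. Oas2 did not follow the library pattern of the other members. It had 51.1, 69.0, 64.4 and 46.1 CPM at ZT13, against 93.3, 96.0, 66.2 and 73.8 CPM at ZT1. ZT1 replicates 1 and 2 were highest, and ZT1 replicate 3, highest for so many members, was the lowest of its group and lay inside the ZT13 range. The log2 fold change was -0.51 ± 0.17 (edgeR unadjusted p = 0.0133, adjusted p = 0.491). Oasl2, the family's most abundant member per kilobase, had 244.1, 278.8, 282.4 and 333.1 CPM at ZT13 and 229.1, 310.1, 298.0 and 218.7 CPM at ZT1, with overlap (0.11 ± 0.14).

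Oas1a had 64.46, 95.004, 84.7 and 86.4 CPM at ZT13 and 67.4, 80.3, 107.7 and 59.5 CPM at ZT1. Oas1g had 9.75, 24.9, 16.8 and 13.7 CPM at ZT13 and 11.3, 17.1, 20.3 and 9.07 CPM at ZT1. Both overlapped between the times, with log2 fold changes of 0.07 ± 0.19 for Oas1a and 0.17 ± 0.33 for Oas1g. These paralogs share 57.6% of Oas1a's 50-base stretches and 45.2% of those of Oas1g, so their separate values are uncertain in the same way as for the Ifit3 pair. Their promoter stretches above carry the same matches. Oas3 averaged 219.3 ± 33.4 CPM at ZT13 and 221.1 ± 30.9 CPM at ZT1 (log2 fold change -0.01, interval from -0.31 to 0.29). Oasl1, which in mice holds back Irf7 translation, averaged 42.5 ± 10.3 CPM at ZT13 and 44.6 ± 13.3 CPM at ZT1.

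The IFITM genes, for membrane proteins that hinder the entry of viruses, were the most abundant members and had higher values at ZT13. Ifitm3 had 1184, 1585, 1689 and 1623 CPM at ZT13, against 910.7, 958.5, 1558 and 785.4 CPM at ZT1. ZT1 replicates 1, 2 and 4 lay below every ZT13 library and ZT1 replicate 3 lay among them (log2 fold change 0.53 ± 0.21; edgeR unadjusted p = 0.0283, adjusted p = 0.504). Ifitm1 had 872.8, 930.1, 888.2 and 1279 CPM at ZT13 and 495.0, 634.3, 1005 and 551.3 CPM at ZT1. The same ZT1 library was the exception (0.56 ± 0.22; unadjusted p = 0.0287, adjusted p = 0.504 in edgeR). Without ZT1 replicate 3 the log2 fold change was 0.78 for Ifitm3 and 0.82 for Ifitm1, and the adjusted p 0.108 and 0.129 in edgeR.

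Relatives of this family outside the 41 genes had values of the same order. Ifitm6 had 1865, 1958, 2148 and 1949 CPM at ZT13 and 1345, 1389, 1913 and 1115 CPM at ZT1 (log2 fold change 0.46 ± 0.15; edgeR unadjusted p = 0.0114, adjusted p = 0.473), again with ZT1 replicate 3 as the library inside the ZT13 range. Ifitm2, chosen after its values were seen, gave 0.44 ± 0.20, and 48.5% of its 50-base stretches occur in other genes, against 10.02% for Ifitm3 and 5.02% for Ifitm1. Of the 8 neutrophil marker genes, 7 had positive fold changes, against 47.7% of all genes tested. In edgeR, 3 of these positive fold changes had an unadjusted p under 0.05, against 4.35% of all genes. Csf3r, the receptor gene for the growth factor of neutrophils, had a negative one (-0.29, unadjusted p = 0.0218, 1559 CPM at ZT13 and 1904 CPM at ZT1), and Itgam stood near 0 (0.02). S100a8, which encodes an alarmin of neutrophils, had 30021, 29419, 46457 and 50434 CPM at ZT13 and 19537, 28879, 31448 and 20932 CPM at ZT1 (0.63 ± 0.22), and the mean log2 CPM of the 8 neutrophil markers was 11.9 ± 0.11 at ZT13 and 11.6 ± 0.22 at ZT1. The part of this shift in the IFITM values was not tested.

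**Figure D4:**
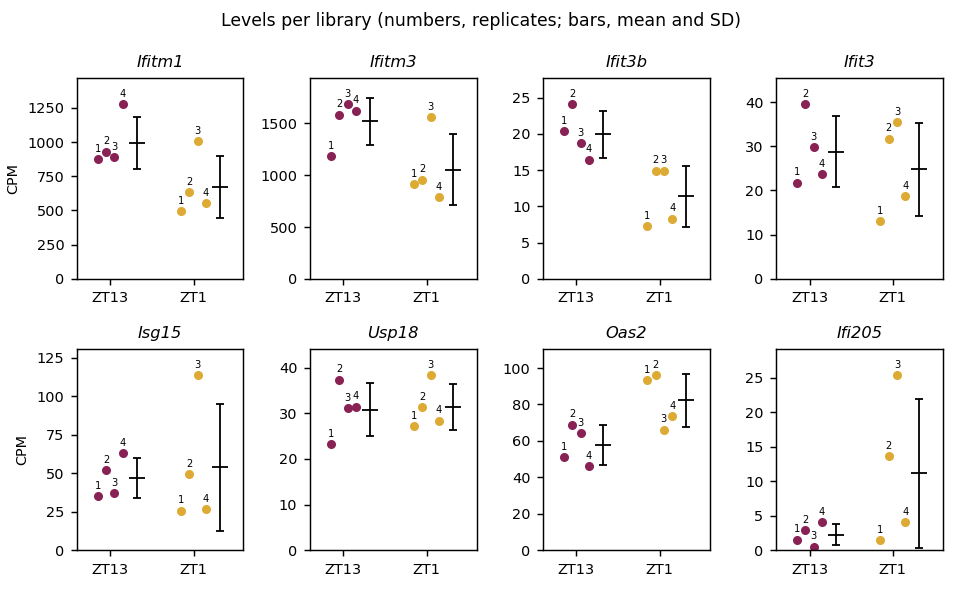
CPM of 8 members in each library, ZT13 left and ZT1 right in each panel, with numbers for replicates and bars for mean and SD (n = 4 each). For Ifitm1 and Ifitm3, ZT1 replicate 3 lies in the ZT13 range, and for Isg15 and Ifi205 it lies above all other libraries.

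Other antiviral effectors overlapped between the times. Bst2, or tetherin, which holds budding virus at the cell surface, averaged 21.6 ± 3.49 CPM at ZT13 and 15.2 ± 5.67 CPM at ZT1 (log2 fold change 0.51 ± 0.25, edgeR unadjusted p = 0.0729). Rtp4 averaged 149.7 ± 33.2 CPM at ZT13 and 123.2 ± 50.3 CPM at ZT1, Isg20, an exonuclease, 62.8 ± 16.1 CPM at ZT13 and 54.9 ± 20.5 CPM at ZT1, and Cmpk2, a mitochondrial nucleotide kinase next to Rsad2 in the genome, 150.1 ± 36.02 CPM at ZT13 and 146.7 ± 17.6 CPM at ZT1. The interval of Trim30a ran from -0.34 to 0.13, the narrowest of the 41. Mx1 and Mx2, the dynamin-like GTPases, were low: Mx1 averaged 4.44 ± 4.09 CPM at ZT13 and 6.65 ± 2.71 CPM at ZT1, and Mx2 0.966 ± 0.671 CPM at ZT13 and 2.10 ± 0.880 CPM at ZT1. The annotation lists Mx2 as a polymorphic pseudogene and the other 40 members as protein-coding genes.

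Of the sensors of nucleic acid in the cytosol, Ifi205 had the largest fold change of all members and the least even values. It had 1.52, 2.89, 0.523 and 4.02 CPM at ZT13, against 1.462, 13.7, 25.4 and 4.04 CPM at ZT1. ZT1 replicates 2 and 3 were high, as they were for the interferon-gamma-inducible genes described below, while ZT1 replicates 1 and 4 lay near the ZT13 values (log2 fold change -2.31 ± 0.86; edgeR unadjusted p = 0.0234, adjusted p = 0.494; -1.52 without ZT1 replicate 3). Ifi204, its relative in the same gene cluster on chromosome 1, had 58.0, 89.8, 48.4 and 76.5 CPM at ZT13 and 57.3, 77.1, 94.5 and 60.7 CPM at ZT1, with overlap and a log2 fold change of -0.09 ± 0.22. Of their 50-base stretches, 18.6% for Ifi205 and 20.02% for Ifi204 occur in other genes, most of them in Ifi211. Ddx58 (RIG-I) and Ifih1 (MDA5), which sense viral RNA, gave -0.21 ± 0.15 and 0.13 ± 0.33, Dhx58 (LGP2), which tunes both, -0.01 ± 0.17, and Zbp1, a sensor of Z-form nucleic acid that can trigger cell death, 0.20 ± 0.22.

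Ifi27l2a was the most abundant of the remaining members per kilobase. It had 80.9, 174.5, 139.0 and 192.9 CPM at ZT13, against 57.0, 101.0, 155.7 and 66.8 CPM at ZT1. ZT13 replicate 1 lay among the ZT1 values and ZT1 replicate 3 among the ZT13 values (log2 fold change 0.63 ± 0.34, edgeR unadjusted p = 0.0976, and 0.97 without ZT1 replicate 3). Phf11b had 7.47, 11.02, 2.53 and 8.80 CPM at ZT13 and 7.65, 8.70, 16.6 and 6.58 CPM at ZT1, and Phf11d 2.09, 2.45, 2.29 and 5.19 CPM at ZT13 and 3.54, 4.12, 6.95 and 1.86 CPM at ZT1. Both overlapped, with ZT1 replicate 3 highest, and 47.0% of the stretches of Phf11b occur in other genes (26.0% in Phf11a). Ms4a4c averaged 138.9 ± 33.4 CPM at ZT13 and 151.1 ± 36.7 CPM at ZT1, Ifi35 35.3 ± 4.02 CPM at ZT13 and 35.5 ± 8.36 CPM at ZT1, and Xaf1 16.8 ± 5.95 CPM at ZT13 and 15.9 ± 4.35 CPM at ZT1. Ifi44 was the lowest member, at 0 in 3 ZT13 libraries and 1.26 CPM (56 counts) in ZT13 replicate 4. At ZT1 it had 0.861, 1.70, 0.487 and 0.759 CPM. With this spread at ZT13 its fold change was not resolved (interval from -5.40 to 2.20).

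Upstream of these genes, the interferons themselves could be read for 1 gene. Of 18 listed type I interferon genes, Ifnz is the one in the table, at 0.043 CPM in 1 ZT1 library and 0 elsewhere, and the others were not analysed here. The receptor and its signalling genes (Ifnar1, Ifnar2, Jak1 and Tyk2) had negative fold changes, 4 of 4, with a median of -0.23. Of all 12610 genes tested, 6597 were negative. All 4 stayed negative in every alternative run. In edgeR 1 of them (25%) had an unadjusted p under 0.05, where 4.85% of all genes were lower at this p. Ifnar1 had 91.8, 85.4, 89.6 and 92.5 CPM at ZT13, against 105.7, 113.1, 108.7 and 124.0 CPM at ZT1. Every ZT13 library lay below every ZT1 library, and the spread within each group was small (log2 fold change -0.33 ± 0.09; edgeR unadjusted p = 0.00434, adjusted p = 0.403). DESeq2 gave Ifnar1 an adjusted p of 0.0798 on the filtered genes and 0.0169 on all genes with its own filtering, so the call depended on the tool and filter. Jak1 averaged 594.9 ± 35.3 CPM at ZT13 and 654.8 ± 44.9 CPM at ZT1, and Tyk2 74.1 ± 15.6 CPM at ZT13 and 93.0 ± 7.995 CPM at ZT1.

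Among 11 tested genes of interferon induction, 9 had negative values, where 6597 of all 12610 genes tested were negative. In edgeR 1 had an unadjusted p under 0.05 (9.09%, against 9.2% of all genes), the kinase gene Ikbke (-0.47 ± 0.19). Tlr3 and Tlr9, also on this list, were removed by the filter. Tlr3 was at 0 in all 4 ZT13 libraries and at 1.07, 1.25, 2.67 and 0 CPM at ZT1. DESeq2 on all genes with its own filtering gave Tlr3 an adjusted p of 0.00453 and Tlr9 one of 0.0685, where it called 1.7% of all genes. Of 7 negative regulators, which include Isg15 and Usp18, 6 had negative values. An edgeR unadjusted p under 0.05 was held by 1 (14.3%, against 9.2% of all genes). This was Socs1, the inhibitor of JAK kinases, at 5.84 ± 1.70 CPM at ZT13 and 11.7 ± 6.72 CPM at ZT1 (-1.01 ± 0.43). Its high values were in ZT1 replicates 2 and 3. The 36 further interferon-stimulated genes had 19 positive and 17 negative values and a median of 0.01. At an unadjusted p under 0.05 stood 2 of them (5.56%, against 9.2% of all genes tested), Ifitm6 higher and Samd9l lower (-0.31 ± 0.12).

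The interferon-gamma-inducible genes separated 2 of the libraries in a way the 41 members did not. Their mean log2 CPM was 2.78, 3.30, 2.99 and 3.29 at ZT13, against 3.34, 5.11, 5.52 and 3.41 at ZT1, in order of replicate. ZT1 replicates 2 and 3 were far above all others. In the same libraries the type I members stood at 5.57 and 5.88, while ZT13 replicates 2 and 4, at 5.54 and 5.51, lay close to ZT1 replicate 2 without a high level of interferon-gamma-inducible genes. Of the 18 interferon-gamma-inducible genes 9 (50%) had an unadjusted p under 0.05, against 9.2% of all genes tested, and all 9 were lower at ZT13 (4.85% of all genes were lower at this p), with a median log2 fold change of -0.97, against -0.01 for the 41 members. DESeq2 called 3 of the 18, against 0.94% of all genes. The difference between the lists was not tested. Ifng, the interferon-gamma gene, had 0 counts in all 8 libraries.

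**Figure D5:**
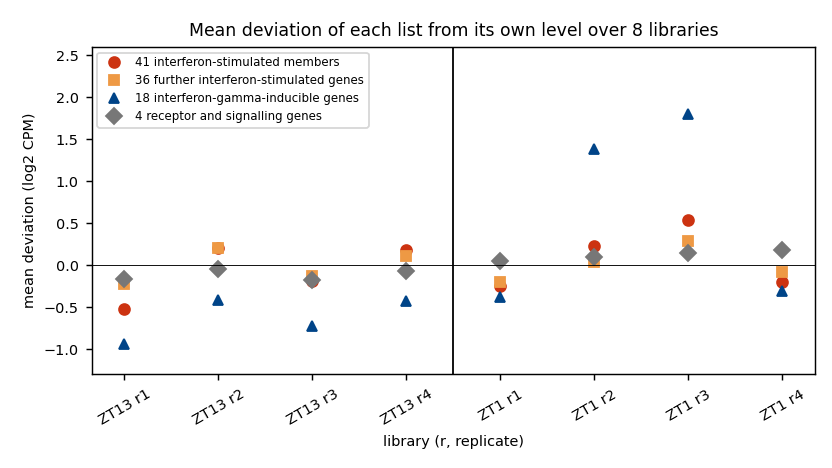
Mean deviation of 4 gene lists from their own level over 8 libraries (y axis, log2 CPM), by library (x axis, ZT13 left of the line and ZT1 right). The mean of the interferon-gamma-inducible genes (triangles) is above 0 in ZT1 replicates 2 and 3 alone. That of the 41 members (circles) is above 0 in ZT13 replicates 2 and 4 as well.

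Markers of other cells also differed between libraries. The monocyte and macrophage list had a mean log2 CPM of 4.52, 4.82, 3.61 and 4.35 at ZT13 and 4.40, 5.01, 5.54 and 4.36 at ZT1, highest in ZT1 replicate 3, where the members were highest. C1qc, a complement gene of macrophages and microglia, had 13.3, 19.6, 7.05 and 6.33 CPM at ZT13 and 3.785, 8.14, 22.7 and 4.46 CPM at ZT1. Like C1qc, Ms4a7, C1qa, Fcgr1 and Csf1r were highest in ZT1 replicate 3. Ly6c2 and C1qb were highest in ZT13 replicate 2, Ccr2 and Adgre1 in ZT1 replicate 4 and Mrc1 in ZT1 replicate 2. The summed CPM of this list was highest in ZT13 replicate 2 (2511, against 2432 in ZT1 replicate 3). The microglia list stood highest in ZT13 replicate 2, at 3.55, followed by ZT1 replicate 3 at 3.32. Plasmacytoid dendritic cell markers, of cells known for making interferon-alpha, ran from 0.07 to 2.17 mean log2 CPM at ZT13 and from 0.82 to 2.53 at ZT1. The top value was in ZT1 replicate 2. This mean covers 5 tested genes, of which Irf8 and Tcf4 held most of the CPM. Siglech (also on the microglia list), Ccr9 and Cd300c reached at most 4.92, 1.31 and 0.559 CPM. Ccr9 and Cd300c were at 0 in several libraries. Sums over 10 T and NK cell markers were 6.92 to 15.2 CPM at ZT13 and 5.92 to 18.3 CPM at ZT1. Over 4 B cell markers they were 153.6 to 194.0 CPM at ZT13 and 136.1 to 248.8 CPM at ZT1. Over 5 endothelial markers they were 10.7 to 19.4 CPM at ZT13 and 14.1 to 23.6 CPM at ZT1. Dendritic cell markers (7 genes) summed to 45.5 to 80.03 CPM at ZT13 and 26.01 to 100.2 CPM at ZT1. The 5 neural and oligodendrocyte markers summed to 109.5 to 219.3 CPM at ZT13 and 104.1 to 165.6 CPM at ZT1. The part of other cells in the members' levels was not tested.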

How the data were processed

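Bulk RNA of sorted spinal cord neutrophils was measured in 8 libraries (4 at ZT13, 4 at ZT1). The labels place them in 1 batch and describe SMART-Seq v4 and Nextera XT libraries read as single 50-base reads. The authors deposited raw counts per gene. The submitters' processing notes name STAR 2.7.10b, Subread 2.0.3 with featureCounts, DESeq2 1.46.0, FastQC and the GRCm38 build. What each did, the strand setting, the annotation release and how reads mapping to several places were treated is not stated in those notes. Of the identifiers, 22231 matched GENCODE M21 without version numbers, and the 1138 others held 0.121% of the counts.

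Counts were fitted in R 4.3.3 with edgeR 4.0.16, after filterByExpr by group with a count of at least 10 and a total of at least 15, with TMM factors, robust quasi-likelihood F-tests of ZT13 over ZT1 and Benjamini-Hochberg adjustment over 12610 genes, with a threshold of 0.05. The biological coefficient of variation was 0.498. Log2 CPM used a prior count of 2. Levels per kilobase used GENCODE exon lengths. Alternatives were other scalings, other filters, DESeq2 1.42.0, limma-voom (limma 3.58.1), the replicate number as a block, and each library left out in turn. The procedure was tested on simulated data. No pair of libraries within a group agreed within sampling noise (chi-square per gene of 69.8 or more).

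The members and lists were chosen with earlier results of these data known, so no p is given for a list. Named in every library are, per role, the member with the most CPM per kilobase and that with the smallest p, members at an unadjusted p under 0.05, those with the largest fold changes and paralog pairs; of each other list up to 3 genes, not all printed. One listed item is not reported here.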

Additional observations from a re-analysis of the deposited data

Results flagged for a closer look

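In 5 of 82 groups of 4 libraries (41 members at 2 times), 1 library lay far from the other 3 by Dixon's criterion; about 4.1 of 82 would be marked by chance. All 5 were ZT13 groups. Parp14 had 48.2 CPM in ZT13 replicate 2, where the other ZT13 libraries lay between 17.3 and 19.2 CPM. In ZT13 replicate 4, Ifitm1 had 1279 CPM (others 872.8 to 930.1), Phf11d 5.19 CPM (others 2.09 to 2.45) and Ifi44 1.26 CPM (others 0). Rtp4 had 100.4 CPM in ZT13 replicate 1, below the other ZT13 libraries at 158.9 to 169.8 CPM, and that library also held the lowest value of 13 members.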

How the results depend on the processing

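Over 17 alternatives 0 members were called, with a lowest adjusted p of 0.108 in edgeR (Ifitm3 without ZT1 replicate 3). In all alternatives that tested them, 24 of 41 members kept the sign of their fold change. Of these 24, Mx2, Ifi205, Ifi44 and Phf11d were tested in 16 alternatives. The other 17 members had fold changes of at most 0.29 in size on the log2 scale. Genes called over the whole table numbered 0 in edgeR, 118 in DESeq2 and 256 in DESeq2 on all genes, an alternative chosen after seeing the data. Leaving out 1 library gave 3 to 8 members at an unadjusted p under 0.05 (3 without ZT1 replicate 1, 2 or 4, and 8 without ZT1 replicate 3), a median log2 fold change of -0.11 to 0.09, and a median r with the other members of 0.57 to 0.74. The median was 0.007 with upper-quartile factors and -0.07 with library totals, where that of all genes was 0.0005 and -0.08.

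Same-numbered libraries did not vary together (correlations of their deviations from -0.04 to 0.02), so the numbers were not taken as pairs; with the replicate number as a block 0 genes were called, 6 members had an unadjusted p under 0.05 and the median was -0.02. Isg15 turned to 0.065 with limma-voom and 0.061 with the replicate block. With 1 library left out, the log2 fold change of these genes changed sign in some cases and ran from -0.43 to 0.46 for Isg15, -0.23 to 0.041 for Irf7, -0.13 to 0.086 for Usp18, -0.55 to 0.030 for Rsad2, -0.25 to 0.066 for Ifi204, -0.041 to 0.26 for Oas1a, -0.11 to 0.38 for Oas1g, -0.17 to 0.060 for Myd88 and -0.20 to 0.34 for Cd74. The cause was not tested. The spread between libraries, not depth, limits members above a few CPM. For Ifi44 and Mx2 libraries at 0 counts stood beside others at 29 to 79 and 51 to 244 counts, so spread was large there too.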
